A study of Nomascus leucogenys with 9 samples.

Results

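The receptors that steer B lymphocytes through lymphoid tissue were examined as transcripts in cultured gibbon B cells. The genes CCR7, CXCR4, CXCR5, CCR6, CXCR3, GPR183, S1PR1 and S1PR2 were chosen by their human Ensembl identifiers. All 8 were found among the 15356 rows of the expression table, and 0 were absent. The lymphoblastoid lines came from 9 northern white-cheeked gibbons (Nomascus leucogenys), and RNA-seq gave 1 library for each animal. The lines are named Vok, Ricky, Phyllis, Nancy, Melouprey, Khao, China, Bobby and Asia. They form 1 group in which every line was transformed with Epstein-Barr virus (EBV) and no treatment is labelled, and the labels give neither age nor sex nor the number of cell clones. The study asked how the gibbon retrotransposon LAVA had been taken over by the host genome, and the labels set no contrast between animals. The levels of the receptors and their differences among lines are therefore described.

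All 8 proteins are G protein-coupled receptors of the cell surface. In lymph nodes of mice and humans, CCR7 draws cells toward the T cell zone and CXCR5 draws B cells into follicles, while CXCR4 holds them in bone marrow and in the dark zone of germinal centres. GPR183 senses oxysterols and places activated B cells at the outer follicle. The lipid sphingosine 1-phosphate guides exit into lymph and blood through S1PR1 and confines germinal-centre cells through S1PR2. CCR7 and GPR183 were first isolated in human cells as genes induced by EBV. A suspension culture has no such tissue, so the values concern transcripts and not movement.

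The deposited values are normalized and logarithmic, and were read as log2 units, so that 1 unit is a 2-fold difference. No label or header gives the base of the logarithm. Whether the values are divided by transcript length is not stated, so levels were compared between lines within a gene but not between genes. Each line had 1 library, so a line's value has no error of its own, and mean ± SD is the spread over the 9 lines. Depth is unknown, because the columns raised to base 2 summed to between 13728358 and 14059842 after the authors' scaling. Animal, culture and transformation event cannot be told apart, and in bulk RNA neither can fewer cells with a transcript and less RNA per cell. The defining markers of B cells and of other cell types were not examined, since the table pairs no identifier with a symbol. Over the kept rows of the whole table, line Asia and line Vok departed most from the row medians, by a median of 0.20 and 0.21 log2 units, against 0.070 in Bobby and 0.077 in Ricky.

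Of the 8 receptor transcripts, 6 spanned a wider range among the lines than the median row, and CXCR5 and CCR6 about the same range. A total of 12590 rows had a mean of at least 1 ppm (a part in 1000000) of the summed linear values, and all 8 receptors were among them. The lines spanned at least 2-fold in 6 of the 8 receptors (75.0%), against 26.4% of these rows. This number was 4 without Asia, 5 without Nancy and 5 without Vok. Ranges at least as wide were found in 25.7% of the kept rows within 1 log2 unit of the mean of S1PR2. The same share was 13.5% for CCR7, 12.2% for GPR183 and 10.1% for S1PR1. CXCR4 and CXCR3, 2 of the 8, spanned at least 4-fold, against 6.18%. The count was 1 without Asia, without Bobby and without Melouprey. A line that stood apart by Dixon's gap criterion was found in 2 of the 8, CCR7 and CXCR3, against 10.1%. The latter count was 1 or 0 when any line was left out. The median range of the receptors was 1.19 log2 units, or 2.27-fold, against 0.68 log2 units, or 1.60-fold, over all rows kept. CXCR5 and CCR6 were the receptors with the narrowest ranges, at 0.683 and 0.691 log2 units against 0.679 for the median row. Rows below 1 ppm had a median range of 0.39 log2 units, against 0.78 in rows of 1 to 10 ppm. CCR6, with a mean of 1.07 ppm, lay at that limit.

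**Figure D1:**
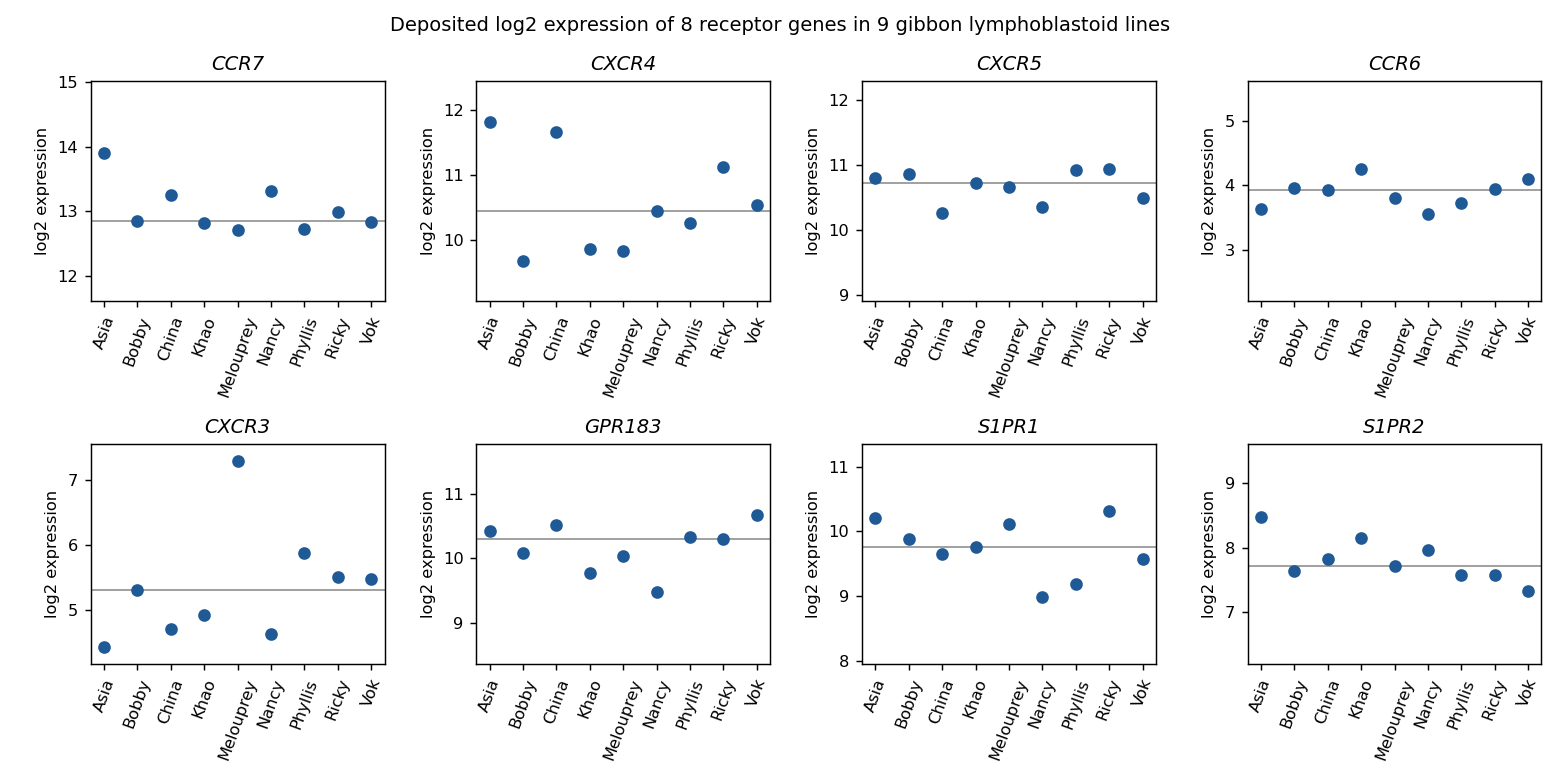
Deposited log2 expression (vertical axis, of equal length in every panel) of the 8 receptor genes in the 9 lines (horizontal axis), with 1 point a line and a grey line at the median. CXCR4 and CXCR3 spread widest, CXCR5 and CCR6 least.

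**Figure D2:**
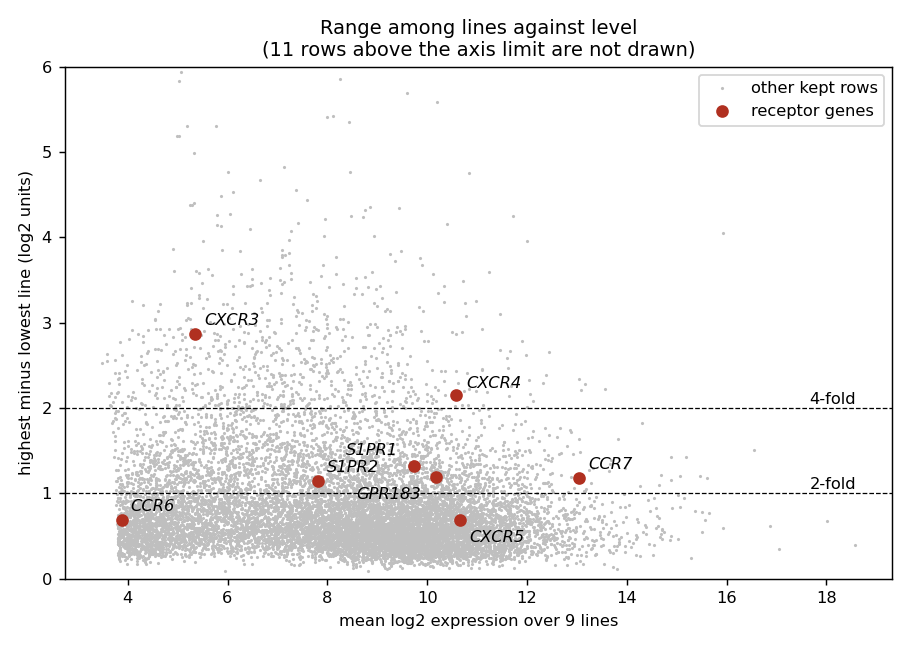
Highest minus lowest line in log2 units against mean log2 expression, for the receptors (red) and the other rows kept (grey), with dashed lines at 2-fold and 4-fold. A total of 11 rows above 6 log2 units are not drawn. CXCR3 at 2.87 and CXCR4 at 2.15 lie above the 4-fold line, and CXCR5 at 0.68 and CCR6 at 0.69 lie below the 2-fold line.

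CCR7 (ENSG00000126353), the receptor for the chemokines CCL19 and CCL21, was highest in Asia. Its level was 13.90 log2 units in Asia, 13.31 in Nancy, 13.25 in China and 13.00 in Ricky. It was 12.85 in Bobby, 12.83 in Vok, 12.82 in Khao, 12.72 in Phyllis and 12.72 in Melouprey. Asia was thus apart from all other lines, Nancy and China came next, and the lowest 5 lines lay close together. The mean was 13.04 ± 0.39 (SD, n = 9), and the range of 1.18 log2 units was 2.27-fold. Without Asia the range was 0.59 log2 units, or 1.51-fold.

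CXCR4 (ENSG00000121966), the receptor for CXCL12, had the widest range after CXCR3. Its level was 11.82 log2 units in Asia, 11.66 in China and 11.12 in Ricky. It was 10.53 in Vok, 10.44 in Nancy and 10.26 in Phyllis, and then 9.85 in Khao, 9.83 in Melouprey and 9.67 in Bobby. The lines formed a graded series in which Asia and China were high, and Khao, Melouprey and Bobby were low. The mean was 10.58 ± 0.79 (SD, n = 9) and the range was 4.43-fold. Of the 3311 kept rows with a mean within 1 log2 unit of CXCR4, 1.66% had a range at least as wide. With Asia left out the range was 3.96-fold, and with Bobby left out it was 3.97-fold.

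CXCR5 (ENSG00000160683), the receptor for the follicular chemokine CXCL13, varied among the lines about as much as the median row. Its level was 10.94 log2 units in Ricky, 10.92 in Phyllis, 10.87 in Bobby, 10.80 in Asia and 10.72 in Khao. It was 10.66 in Melouprey, 10.50 in Vok, 10.36 in Nancy and 10.25 in China. The mean was 10.67 ± 0.25 (SD, n = 9), with a range of 1.61-fold, and 49.6% of the rows kept varied at least as much. Nancy and China, which were high for CCR7, were the lowest lines here, while Asia was not.

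CXCR3 (ENSG00000186810), the receptor for the interferon-induced chemokines CXCL9, CXCL10 and CXCL11, was set apart by 1 line. The level was 7.30 log2 units in Melouprey and 5.88 in Phyllis. It was 5.51 in Ricky, 5.48 in Vok, 5.31 in Bobby and 4.93 in Khao, and lowest in China (4.71), Nancy (4.63) and Asia (4.43). Melouprey was 3.96-fold above the median line, and the full range was 7.32-fold. The mean was 5.35 ± 0.87 (SD, n = 9), or 3.59 ± 3.04 ppm. Asia, Nancy, China and Khao lay between 1.55 and 2.17 ppm, near the limit of the rows kept. With an unknown depth, the order of these low lines cannot be told apart from counting noise. Without Melouprey the other 8 lines spanned 2.73-fold. A range as wide as that of CXCR3 was found in 1.88% of the rows kept, and in 3.32% of the 2290 rows within 1 log2 unit of its mean.

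CCR6 (ENSG00000112486), the receptor for CCL20, lay at the lower limit of the rows kept. Its mean was 3.88 ± 0.22 log2 units (SD, n = 9), or 1.07 ppm of the summed values. Its level was 4.26 log2 units in Khao and 4.10 in Vok, and 3.64 in Asia and 3.56 in Nancy at the low end. The other 5 lines lay between them, and the range was 1.61-fold. With an unknown depth, these values do not show whether CCR6 was transcribed above background in any line.

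GPR183 (ENSG00000169508), the oxysterol receptor, ran from low in Nancy to high in Vok. Its level was 10.66 log2 units in Vok, 10.51 in China, 10.42 in Asia, 10.33 in Phyllis and 10.30 in Ricky. It was 10.08 in Bobby, 10.03 in Melouprey, 9.78 in Khao and 9.47 in Nancy. Nancy and Khao were the low lines, and the other 7 lay within 0.63 log2 units of each other. The mean was 10.18 ± 0.38 (SD, n = 9) and the range was 2.28-fold. In the RefSeq annotation of the gibbon assembly Asia_NLE_v1 the gene lies inside the span of UBAC2, and CXCR5 overlaps BCL9L. The counting is not stated to use strand, so reads of these neighbours cannot be told apart from those of the receptors.

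S1PR1 (ENSG00000170989), the receptor that promotes exit from lymphoid organs, was low in Nancy and Phyllis. Its level was 10.32 log2 units in Ricky, 10.21 in Asia, 10.11 in Melouprey and 9.89 in Bobby. It was 9.76 in Khao, 9.65 in China and 9.58 in Vok, and then 9.19 in Phyllis and 8.99 in Nancy. The mean was 9.74 ± 0.45 (SD, n = 9) and the range was 2.51-fold.

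S1PR2 (ENSG00000267534), the confining receptor of germinal-centre B cells, had another order of lines. Its level was 8.47 log2 units in Asia, 8.15 in Khao, 7.96 in Nancy and 7.82 in China. It was 7.71 in Melouprey, 7.64 in Bobby, 7.58 in Phyllis, 7.58 in Ricky and 7.33 in Vok. Ricky, the highest line for S1PR1, was next to the lowest for S1PR2, and Nancy, the lowest for S1PR1, was the third highest. The mean was 7.81 ± 0.35 (SD, n = 9) and the range was 2.21-fold, or 1.77-fold without Asia.

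By line, Asia held the highest value of 3 receptors (CCR7, CXCR4 and S1PR2) and the lowest of CXCR3. Nancy held the lowest value of 3 receptors (CCR6, GPR183 and S1PR1). Ricky held the highest of 2 (CXCR5 and S1PR1) and the lowest of 0. The median size of the receptors' deviations from their medians was 0.61 log2 units in Asia and 0.41 in Nancy, and 0.10 in Bobby. Over all rows kept the same measure was 0.20 in Asia, 0.14 in Nancy and 0.070 in Bobby. Its part in the receptor differences was not tested.

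Differences between receptors within a line do not depend on a scale factor common to that line, and gene length cancels when they are compared between lines. Of all 28 differences, 4 that set receptors of unlike position or function side by side were described, chosen after the values had been seen. The log2 difference of CCR7 over CXCR5, the T zone receptor over the follicle receptor, was 3.10 in Asia, 2.99 in China and 2.95 in Nancy. It was 2.33 in Vok and between 1.81 (Phyllis) and 2.10 (Khao) in the other 5 lines. Asia, China and Nancy were close to each other and apart from the other 6. In Asia CCR7 was high and CXCR5 was near its median, while in China and Nancy CXCR5 was also low.

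The difference of CXCR4 over CXCR5 was 1.41 log2 units in China and 1.02 in Asia, and lowest in Bobby at -1.19, a 6.05-fold span. Khao (-0.87), Melouprey (-0.83) and Phyllis (-0.65) were also low, and Ricky (0.18), Nancy (0.079) and Vok (0.034) lay between. For S1PR1 over S1PR2, the exit receptor over the confining receptor, Ricky was highest at 2.74 log2 units and Nancy lowest at 1.03. Melouprey (2.40), Bobby (2.25) and Vok (2.25) were above the median, China (1.83) was the median line, and Asia (1.74), Phyllis (1.61) and Khao (1.61) were below it. The span was 3.28-fold, against 2.51-fold for S1PR1 and 2.21-fold for S1PR2 alone. The 2 receptors were nearly unrelated over the lines (r = 0.17, n = 9). A difference of unrelated genes generally varies more than either gene, so no opposition is read from this span. The difference of GPR183 over S1PR2 was 3.33 in Vok, and 1.63 in Khao and 1.51 in Nancy at the low end, a 3.53-fold span. Nancy was therefore lowest for both differences against S1PR2.

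**Figure D3:**
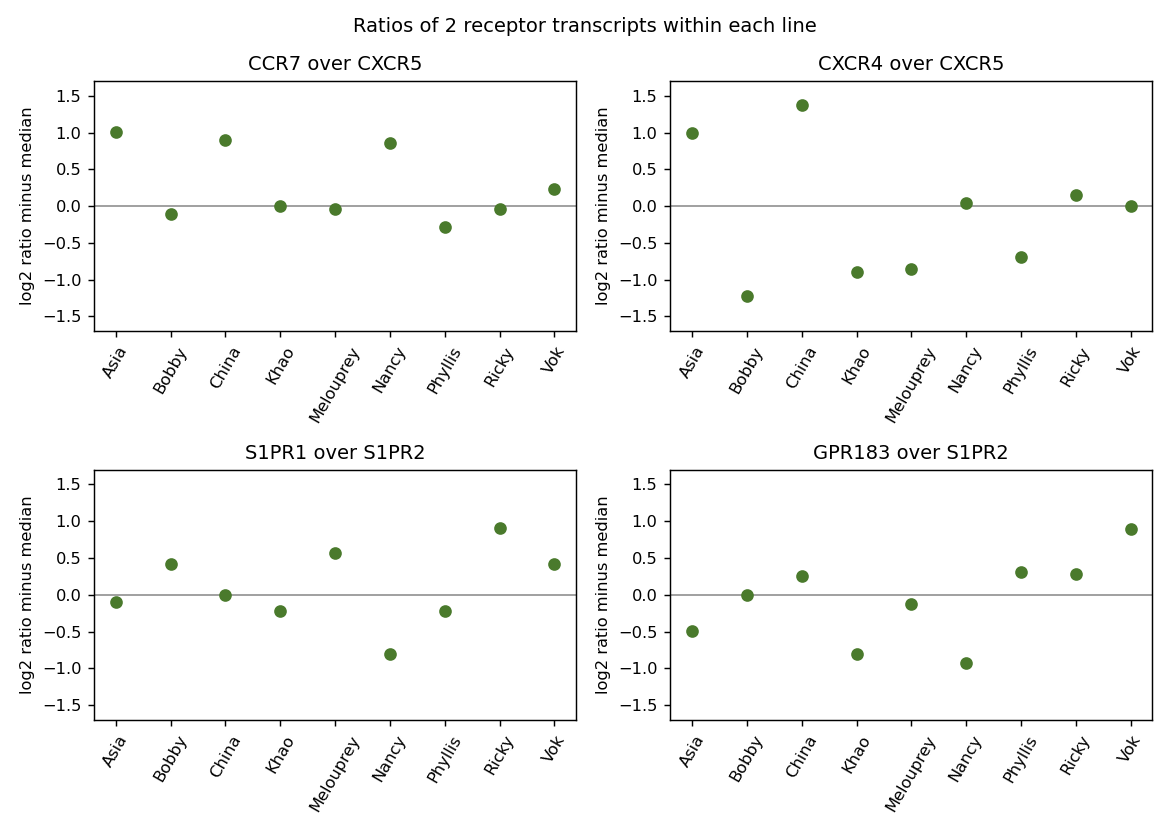
Log2 difference of 2 receptor transcripts within each line minus its median over the lines (vertical axis), for 4 pairs of receptors in the 9 lines (horizontal axis), with 1 point a line. For CCR7 over CXCR5, Asia, China and Nancy lie apart above the other lines. For S1PR1 over S1PR2, Ricky is highest and Nancy lowest.

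The receptors did not vary as a block. Over the 28 pairs, Pearson's r across lines was positive in 18 and negative in 10, and without Asia it was positive in 14 and negative in 14. It reached 0.67 in size in 3 pairs, or 10.7%, against 11.0% of the pairs made of a receptor and another kept row, so the number of related pairs was near the background. All 3 involved CCR7, with which 22.3% of the other kept rows reached that size. An exact two-sided permutation test over the order of the lines gave an unadjusted p under 0.05 in 2 of the 28 pairs by Pearson's r and in 3 by Spearman's rho. The former count was 4 without Khao and 4 without Melouprey. Without Asia it was again 2, but neither pair was among the 2 found with all 9 lines. They were CCR7 with CXCR3, and GPR183 with S1PR2 (r = -0.76, n = 8, exact permutation p = 0.030). Limma fits of every kept row on 1 receptor, with Benjamini-Hochberg adjustment over all rows, called 0 of the 28 pairs, against 0.675% of all row and receptor combinations. At an unadjusted limma p under 0.05 there were 3 pairs. Limma called 1 pair without Khao (CCR7 and S1PR2) and 1 without Nancy (CCR7 and CXCR4).

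CCR7 and CXCR4 were correlated over the lines, with the smallest exact p by Pearson's r of the 28 pairs, not adjusted for their number. Asia was highest for both, while Bobby was the median line for CCR7 and the lowest for CXCR4, and Nancy was next to the highest for CCR7 and the median line for CXCR4. Pearson's r was 0.78 (exact permutation p = 0.0092, n = 9) and Spearman's rho was 0.70 (exact permutation p = 0.043). An r of at least that size was found with CCR7 in 10.6% of the other kept rows, and with CXCR4 in 4.47%. Without Asia and Nancy, the lines farthest from the CCR7 median, r was 0.86 (n = 7, exact permutation p = 0.013). Without Asia alone it was 0.65 (n = 8, exact permutation p = 0.075). The limma adjusted p over all rows was 0.056 with CCR7 as the covariate, and between 0.041 and 0.31 over the alternative settings. With CXCR4 as the covariate the limma adjusted p was 0.18.

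CCR7 and CXCR3 ran in opposite order, with Asia, Nancy and China highest for CCR7 and lowest for CXCR3, and Melouprey and Phyllis lowest for CCR7 and highest for CXCR3. Spearman's rho was -0.85 (exact permutation p = 0.0061, n = 9) and Pearson's r was -0.69 (exact permutation p = 0.060). An r of at least that size was found with CCR7 in 20.5% of the other kept rows, and with CXCR3 in 12.5%. No such share was computed for rho. Every rho with CXCR3 uses the order of its low lines Asia, Nancy, China and Khao. That order cannot be told apart from counting noise. Without Asia and Nancy, r was -0.63 (n = 7, exact permutation p = 0.15), so on those 7 lines the relation did not pass the test. Pearson's r passed it without Asia (-0.70, n = 8, exact permutation p = 0.049), without Khao (-0.76, exact permutation p = 0.038) and without Melouprey (-0.81, exact permutation p = 0.0088). It also passed with quantile normalization of the 9 lines (-0.73, exact permutation p = 0.041). It did not pass without Bobby, China, Nancy, Phyllis, Ricky or Vok, with exact permutation p between 0.063 and 0.11. Nor did it with lines centred on their medians (exact permutation p = 0.058) or with a pseudocount of 1 (exact permutation p = 0.062). The limma adjusted p over all rows was 0.12 with CCR7 as the covariate and 0.28 with CXCR3 as the covariate. For CCR7 and S1PR2, r was 0.73 (exact permutation p = 0.025, n = 9) and rho was 0.42 (exact permutation p = 0.27). An r of at least that size was found with CCR7 in 15.3% of the other kept rows, and with S1PR2 in 9.89%. Without Asia and Nancy r was 0.14, and without Asia it was 0.35 (n = 8, exact permutation p = 0.40), so this relation rested on Asia. CXCR3 and S1PR2 gave r = -0.53 (exact permutation p = 0.15, n = 9) and rho = -0.72 (exact permutation p = 0.037). Without Asia and Melouprey their r was -0.74 (n = 7, exact permutation p = 0.061). It was -0.82 without Melouprey alone (n = 8, exact permutation p = 0.012) and -0.38 without Asia alone (n = 8, exact permutation p = 0.35). The limma adjusted p was 0.34 at the lower of its 2 fits. Of the other kept rows, 31.9% were at least as correlated with CXCR3 as S1PR2 was. For S1PR2 the share as correlated as CXCR3 was 33.4%.

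On the deposited log2 values, more rows were called as varying with CCR7 than with any other receptor. Limma called 659 of 12589 rows (5.23%) with CCR7 as the covariate, of which 417 were higher and 242 lower where CCR7 was higher. The same fit called 18 rows for S1PR2, 1 each for CXCR4, CCR6 and GPR183, and 0 for CXCR5, CXCR3 and S1PR1. At an unadjusted limma p under 0.05 the counts lay closer together, with 2943 rows for CCR7, 2285 for S1PR2, 1955 for CXCR3, 1817 for CXCR4 and 1239 for GPR183. CCR6 had 729 such rows, CXCR5 had 640 and S1PR1 had 218. With the values replaced by the ranks of the lines, limma called 0 rows for CCR7, with 1894 at an unadjusted p under 0.05. The count for CCR7 rested largely on Asia, since 14 rows were called without it, 8 of them among the 659. It was 190 without Melouprey, 225 without Bobby, 311 without Phyllis and 368 without Ricky. The difference between receptors in these counts was not tested.

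The lines were also placed on the first principal component of the kept rows with the 8 receptors left out, which held 34.2% of the variance. Asia scored 47.9, Nancy 20.2 and China 18.7, and the other 6 lines scored between -20.9 and -9.95. Asia lay far from every other line on this axis, and Nancy and China lay apart from the other 6. No correlation over all 9 was therefore computed. The lines were split by the sign of the score, which does not make the 3 above 0 a group. CCR7 lay between 13.25 and 13.90 log2 units in the 3 lines above 0 and between 12.72 and 13.00 in the 6 below. CXCR3 lay between 4.43 and 4.71 in the 3 lines and between 4.93 and 7.30 in the 6. For CXCR3 the sides were parted only by 1.87 ppm in China against 2.17 ppm in Khao, near the limit of the rows kept. These 2 of the 8 receptors did not overlap between the sides, against 9.86% of the other kept rows. The other 6 receptors overlapped, CXCR4 with 10.44 to 11.82 against 9.67 to 11.12. What separates the 3 lines on this axis was not tested.

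**Figure D4:**
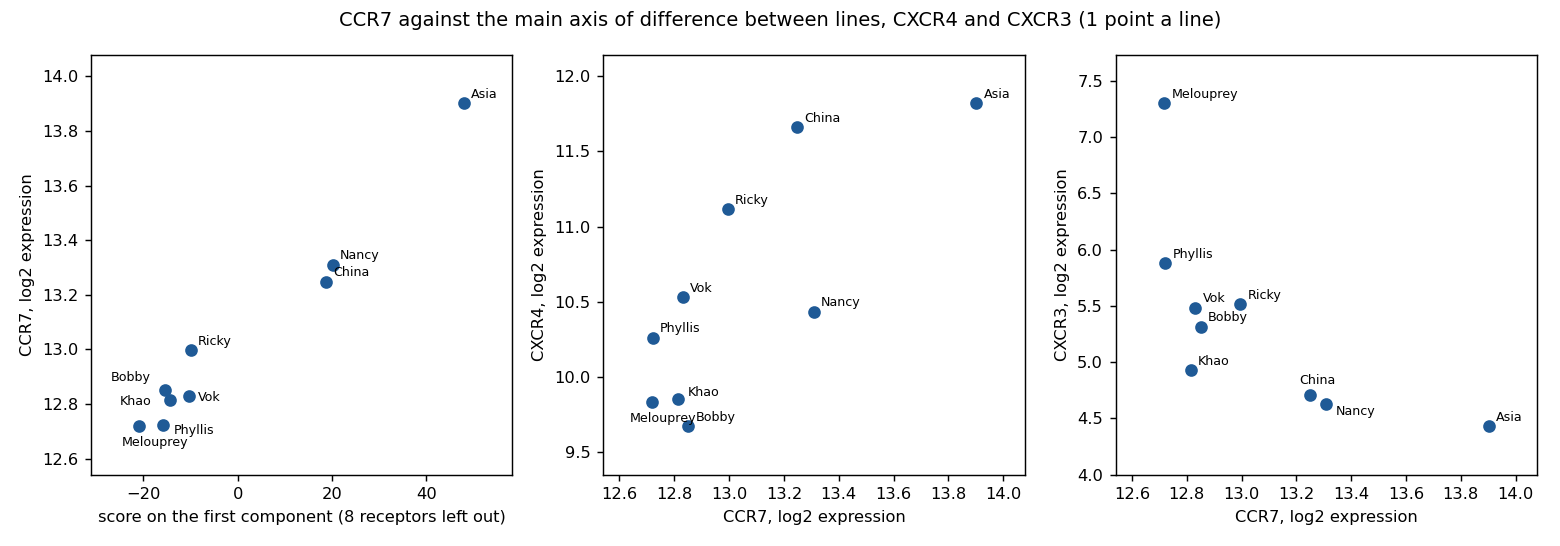
Left, CCR7 in log2 units against the score of each line on the first principal component of the other kept rows. Middle and right, CXCR4 and CXCR3 in log2 units against CCR7, with 1 labelled point a line. Asia, Nancy and China are highest for CCR7 and lowest for CXCR3. Asia is highest for both CCR7 and CXCR4.

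Rows most like the receptors of widest and narrowest range were sought among 3321 other kept rows that spanned at least 2-fold, by Pearson's r over the 9 lines as a description. For CXCR3 they were ENSG00000197451 (r = 0.95) and ENSG00000142634 (r = 0.92). Both were highest in Melouprey and lowest in Asia, as CXCR3 was. The first ran from 10.91 to 11.91 log2 units and the second from 10.53 to 11.60, narrower ranges than that of CXCR3. For CXCR5 they were ENSG00000136842 (r = 0.89), lowest in China and highest in Ricky as CXCR5 was, and ENSG00000196776 (r = 0.89), lowest in Nancy and highest in Bobby. Spearman's rho was 0.95 and 0.78 for the 2 rows of CXCR3, and 0.92 and 0.67 for those of CXCR5. Each r was picked as among the highest of 3321 and was not tested. The table gives no symbol for these identifiers.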

How the data were processed

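Total RNA of 9 EBV-transformed lymphocyte lines was sequenced from Illumina TruSeq libraries, per the labels' protocols. Trimmomatic, STAR, DESeq2 and edgeR were among the tools used, per the submitters' processing notes, which state no version or role. For the genome build, the annotation and the normalization method, nothing is stated in the labels or the header. The authors deposited 1 table of log2 values (15356 rows, 0.71 to 18.66, with 0 zeros), and 0 sample columns were left unused. The highest value was the same, 18.66, in 7 lines, and 18.26 in both Melouprey and Phyllis. Whether the authors matched the distributions of the columns is not known, so quantile normalization may not be an independent alternative. A space in place of a tab in the header was resolved by splitting at white space. Row identifiers have the human Ensembl format, and 0 of them matched the RefSeq gene table, so lists of ligands, signalling genes and cell type markers fixed by symbol were not used.

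The filter kept rows that averaged 1 ppm or more of the sum of linear values (2 to the deposited value), with no pseudocount. Spread was described by the range and SD, and an outlying line by Dixon's criterion at 95%. Pairs of receptors were tested by exact permutation, and over the whole table with limma 3.58.1 in R 4.3.3 (trend, robust, Benjamini-Hochberg, threshold 0.05). The limma code was run on simulated rows, of which some followed CCR7 almost exactly and the others were independent. That run does not cover weaker relations or rows that vary together. The named genes were all 8 receptors and the rows most like the receptors of widest and narrowest range. Receptors and lists were chosen with earlier results of these data known. The bound of 0.67 on r, the differences between receptors, the CCR7 row counts and the principal component were chosen after seeing the data. The filter, scaling, pseudocount, ranks and omission of each line were varied.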

Additional observations from a re-analysis of the deposited data

Results flagged for a closer look

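Dixon's criterion marked 1 line as outlying in 2 of the 8 receptors (25.0%), against 10.1% of the kept rows, and chance flags about 1 in 20 groups. CCR7 was 13.90 log2 units in Asia, far above the next line, Nancy, at 13.31. CXCR3 was 7.30 log2 units in Melouprey, far above the next line, Phyllis, at 5.88. Both gaps only just passed the criterion, at 0.50 of the range each. The count was 0 without Bobby, China, Khao, Melouprey, Ricky or Vok and 1 without Asia, Nancy or Phyllis, where the criterion for 8 values applies.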

How the results depend on the processing

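The number of receptors spanning at least 2-fold was 5 or 6 under the other filters, scalings and pseudocount, and 4 to 6 with any 1 line omitted. Those spanning at least 4-fold numbered 1 with a filter of 5 ppm, which removes CCR6 and CXCR3, and 1 to 2 with a line left out. The number with an outlying line was 1 with that filter and 1 with quantile normalization, and 0 to 1 with a line left out. Pairs of receptors with an exact p under 0.05 numbered 2 or 3, and 2 to 4 with a line left out. Without Asia they were 2 other pairs, CCR7 with CXCR3 and GPR183 with S1PR2. Limma called 1 pair, CCR7 and CXCR4, with no filter (adjusted p = 0.0497) and with quantile normalization (adjusted p = 0.041), against 0 as deposited, and 0 to 1 with a line left out. On ranks of the lines limma called 0 rows with CCR7, with 1894 at an unadjusted p under 0.05, and with a line left out 14 to 850. With no filter it called 961. Other causes of these changes were not tested. The 4 correlations recomputed (CCR7 with CXCR4, CXCR3 and S1PR2, and CXCR3 with S1PR2) kept their sign in every setting that kept both genes. The filter of 5 ppm removes CXCR3, so its correlations were not recomputed there. A range cannot change sign. The range of CCR7 fell from 1.18 to 0.59 log2 units without Asia, and that of CXCR3 from 2.87 to 1.45 without Melouprey. In all other cases a receptor's range changed by less than its SD over the lines. No paired analysis was possible because the lines form 1 group. The depth is not known, and counting noise in the low rows CCR6 and CXCR3 could not be removed.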
